A study of Homo sapiens with 6 samples.

Results

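The aldehyde dehydrogenases (ALDH) are a family of enzymes, most of which oxidise aldehydes to carboxylic acids with NAD or NADP as the electron acceptor. The 10 genes described here, ALDH1A1, ALDH1A2, ALDH1A3, ALDH1B1, ALDH2, ALDH3A1, ALDH3A2, ALDH5A1, ALDH7A1 and ALDH18A1, were picked by symbol among the 58825 gene identifiers of the table, and each had 1 identifier. The rule uses no measured value, but the genes were chosen with earlier results of these data known. The other 9 ALDH genes in the table are given beside them. SKOV3, an established human ovarian cancer cell line, had been transfected transiently for 48 h with an siRNA against EIF5A2 (si-EIF5A2, 3 libraries) or a negative control siRNA (NC, 3 libraries) before messenger RNA was sequenced. All 6 libraries therefore come from the same line and carry an siRNA, and the methods do not say that the cells for sequencing were grown as spheroids. Nothing in the labels says that the replicates are separate cultures, so the p-values measure the spread between these libraries, which may be technical.

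ALDH activity and ALDH1A1 protein are widely used to mark stem-like cells in ovarian cancer, and the study used ALDH staining and ALDH1A1 in this way. The question asked here of the RNA data is which ALDH genes SKOV3 cells transcribe and which of them differ after EIF5A2 knockdown. ALDH1A1, ALDH1A2 and ALDH1A3 are cytosolic enzymes that make retinoic acid from retinaldehyde. ALDH1B1 and ALDH2 are mitochondrial and clear acetaldehyde and other small aldehydes. ALDH3A1 and ALDH3A2 act on aromatic, medium-chain and long-chain fatty aldehydes. ALDH5A1, ALDH7A1 and ALDH18A1 act in the metabolism of GABA, lysine and proline.

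The start sites of the ALDH1A paralogs are shown because these genes, alike in function, had very different RNA levels. Those of ALDH1B1 and ALDH5A1 are shown because these members fell, so they were picked by their result. Each line holds the 250 bases before a RefSeq start (GRCh38.p14), 5′ to 3′ on the gene's strand. Capitals mark matches to the GC box (GGGCGG) and the CCAAT box (CCAAT) on either strand, so CCGCCC and ATTGG are marked too, and overlapping matches run together.

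ALDH1A1, chr9:72953054-72953303, minus strand: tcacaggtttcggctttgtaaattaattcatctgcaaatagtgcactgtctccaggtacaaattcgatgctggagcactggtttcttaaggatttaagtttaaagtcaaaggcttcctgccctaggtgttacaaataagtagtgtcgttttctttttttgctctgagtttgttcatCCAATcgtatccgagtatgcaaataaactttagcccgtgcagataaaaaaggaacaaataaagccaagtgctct

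ALDH1A2, chr15:58065712-58065961, minus strand: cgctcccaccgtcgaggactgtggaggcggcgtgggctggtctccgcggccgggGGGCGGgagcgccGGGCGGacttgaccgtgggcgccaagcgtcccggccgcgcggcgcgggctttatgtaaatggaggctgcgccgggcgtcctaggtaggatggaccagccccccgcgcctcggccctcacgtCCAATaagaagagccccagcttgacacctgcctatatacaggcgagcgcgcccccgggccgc

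ALDH1A3, chr15:100879581-100879830, plus strand: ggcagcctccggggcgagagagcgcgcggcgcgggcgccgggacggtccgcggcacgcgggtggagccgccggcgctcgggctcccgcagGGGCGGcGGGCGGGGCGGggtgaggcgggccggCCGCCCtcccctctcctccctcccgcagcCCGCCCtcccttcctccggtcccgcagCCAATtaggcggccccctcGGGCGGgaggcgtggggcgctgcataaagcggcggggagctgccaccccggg

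ALDH1B1, chr9:38392452-38392701, plus strand: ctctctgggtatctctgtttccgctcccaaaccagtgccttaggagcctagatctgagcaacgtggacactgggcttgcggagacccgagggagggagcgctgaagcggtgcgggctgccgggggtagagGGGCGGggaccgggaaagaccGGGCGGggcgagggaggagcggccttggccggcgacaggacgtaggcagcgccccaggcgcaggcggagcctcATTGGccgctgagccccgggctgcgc

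ALDH5A1, chr6:24494719-24494968, plus strand: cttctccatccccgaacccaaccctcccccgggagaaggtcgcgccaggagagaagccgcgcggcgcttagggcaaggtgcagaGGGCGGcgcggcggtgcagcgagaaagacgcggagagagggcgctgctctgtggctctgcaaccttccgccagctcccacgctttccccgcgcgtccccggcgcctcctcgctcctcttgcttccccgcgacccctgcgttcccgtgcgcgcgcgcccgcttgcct

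The ALDH1A1 window was the poorest of these in G and C, with 38.4% GC, 6 CpG and 0 GC boxes. The ALDH1A3 window had 82.4% GC, 38 CpG and 6 GC boxes, and the ALDH1A2 window 72.8% GC, 33 CpG and 2 GC boxes. ALDH1B1 had 70.4% GC and 2 GC boxes, and ALDH5A1 had 72.0% GC and 1 GC box. Each of the printed windows except that of ALDH5A1 held 1 CCAAT box. Over all 35116 windows of the same length, the median was 58.0% GC and 11 CpG, 42.6% held a GC box and 32.0% a CCAAT box. An E2F motif (TTTCCCGC, TTTCGCGC, TTTGCCGC or TTTGGCGC, either strand) was in 2.79% of all windows and in 0 of the 10 windows of the 8 members that matched. ALDH2 and ALDH3A1 had no entry. These matches describe letters in the windows only.

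EIF5A2, the targeted gene, had 27.8, 29.8 and 29.9 CPM (counts relative to the TMM-adjusted library total) in the NC libraries and 2.76, 4.04 and 4.27 CPM in the si-EIF5A2 libraries, which is 12.7% of the NC level. The totals lay between 46900204 and 74142267 estimated counts per library. A sequenced fragment was worth about 3.72 counts at low values, so 0 counts leave room for up to 3 fragments, equal to 0.153 to 0.237 CPM depending on the library. Of 7 epithelial and SKOV3 markers all had counts, with a summed level of 1506 to 1673 CPM in NC and 956 to 1168 CPM in si-EIF5A2. KRT7, KRT8 and PAX8 fell, ERBB2 was at 45.9 (NC) and 45.4 CPM (si-EIF5A2), and EPCAM was low at 1.55 CPM (NC). Of 7 markers of immune, endothelial and stromal cells, PTPRC and CD3E had 0 counts in all libraries. PECAM1 had 2.04, 1.96 and 1.62 CPM in NC and 0, 0.287 and 0.667 CPM in si-EIF5A2. COL1A1 had 0.0638 to 1.15 CPM in NC and 0.782 to 1.98 CPM in si-EIF5A2. PECAM1 and COL1A1 were not called by the rule given below. CD14, VWF and DCN had at most 0.334 CPM in any library. The summed level of the 7 was 2.0 to 3.58 CPM in NC and 0.782 to 3.21 CPM in si-EIF5A2. The part of these marker differences in the results on ALDH genes was not tested.

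Among the ALDH genes, ALDH1A3 and ALDH2 rose after EIF5A2 knockdown, and ALDH5A1 and ALDH1B1 fell. ALDH18A1 and ALDH7A1 differed by less than the fold limit, ALDH3A2 overlapped between the groups, and ALDH1A1, ALDH1A2 and ALDH3A1 were at or near 0. A gene was called when its fold change was over 1.5 and its p, computed by quasi-likelihood in edgeR and adjusted by Benjamini-Hochberg over 16208 genes, was under 0.05. Of the 10 genes, 8 passed edgeR's filter on low counts, all but ALDH1A1 and ALDH3A1. By the rule above 4 of these 8 were called, 2 in each direction, where 24.6% of all genes tested were called, 11.1% higher and 13.6% lower in si-EIF5A2. The CPM ranges of the groups did not overlap in 6 of the 8, and in 51.2% of all genes tested. The median log2 fold change was -0.39 over the 8 members, of which 3 were positive and 5 negative, and -0.01 over all genes tested. In bulk RNA, fewer cells that express a gene and less of its RNA per cell cannot be told apart.

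**Figure D1:**
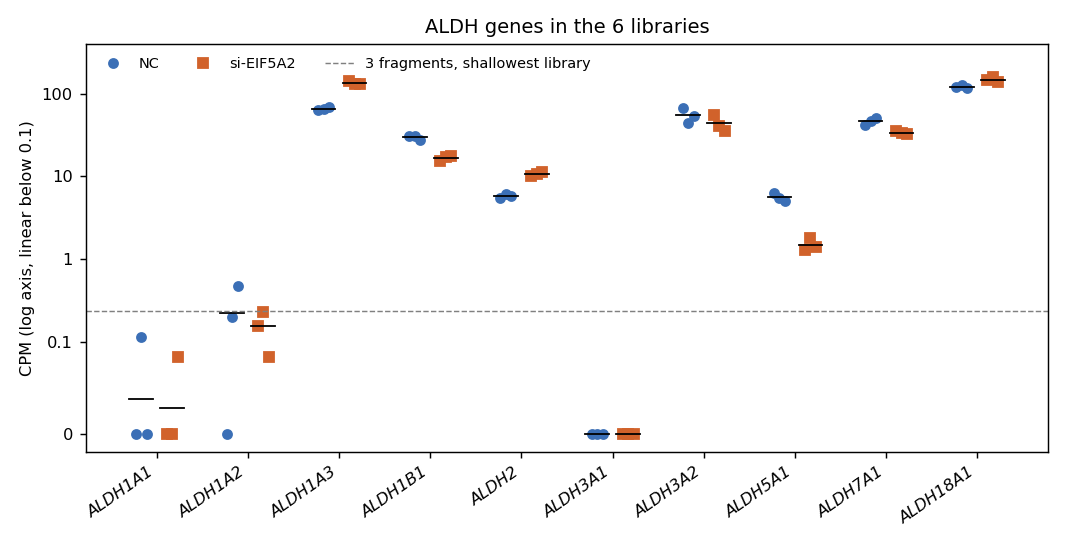
CPM of the 10 ALDH genes in the 3 NC libraries (circles) and 3 si-EIF5A2 libraries (squares), with group means as black lines, on a log axis that is linear below 0.1; the dashed line is the level of 3 fragments in the shallowest library (0.237 CPM). The squares lie above the circles for ALDH1A3, ALDH2 and ALDH18A1 and below them for ALDH1B1, ALDH5A1 and ALDH7A1, while ALDH1A1 stays below the line and ALDH3A1 is at 0.

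Of the ALDH1A genes, ALDH1A3 alone had more than a few fragments per library. ALDH1A3 (ENSG00000184254, chromosome 15 from 100877714 to 100916626, plus strand) had 64.4, 65.4 and 68.3 CPM in the NC libraries and 143, 133 and 132 CPM in the si-EIF5A2 libraries. The lowest si-EIF5A2 library was thus far above the highest NC library. ALDH1A3 rose from 66.1 ± 2.01 to 136 ± 6.07 CPM (SD, n = 3 each), a 2.05-fold change (log2 1.04, standard error 0.07, edgeR adjusted p = 3.0e-05). It was called under each of 14 alternative settings, with log2 fold changes of 0.99 to 1.05. An antisense gene, AC015712.2, shares 1585 exon bases with ALDH1A3 and had 101 to 303 counts per library. Its log2 fold change was -0.18 (edgeR adjusted p = 0.759), and ALDH1A3 itself had 3212 to 7287 counts.

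ALDH1A1 (ENSG00000165092, chromosome 9 from 72900662 to 73080442, minus strand), the member most often used as a stem cell marker, had 8 counts in NC replicate 2, 4 counts in si-EIF5A2 replicate 3 and 0 in the other 4 libraries. That is about 3 fragments in all (95% Poisson interval 0.619 to 8.77, counting error only). It did not pass the filter on low counts, no fold change is given, and a difference between the groups was not detectable at this depth. The study measured ALDH1A1 as protein, and reported less of it in SKOV3 spheroids after EIF5A2 knockdown. The values here are RNA, and the methods do not say that these cells were grown as spheroids. Per kb of the principal transcript, the ALDH1A3 level over all 6 libraries was 1591 times the ALDH1A1 level (95% counting interval 544 to 7715). ALDH1A2 had 0, 14 and 22 counts in NC and 8, 12 and 4 in si-EIF5A2, which is a few fragments per library. Its log2 fold change was -0.45 with a 95% interval from -3.33 to 2.43 (edgeR adjusted p = 0.814), and it was 0.65 without NC replicate 3. ALDH1A3 made up 99.3% to 100% of the per-kb level of the ALDH1A genes in every library. Among the windows printed above, the ALDH1A1 window had 6 CpG and the ALDH1A3 window 38 CpG. The printed ALDH1A2 window had 33 CpG, although its RNA was near 0. That of its second start (chr15:58014024-58014273) had 1 CpG and 41.6% GC. A link between these windows and the RNA levels was not tested.

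The mitochondrial acetaldehyde enzymes moved in opposite directions. ALDH1B1 (ENSG00000137124, chromosome 9 from 38392664 to 38398661, plus strand) had 30.7, 30.7 and 27.9 CPM in NC and 15.2, 17.2 and 17.6 CPM in si-EIF5A2. It fell from 29.8 ± 1.62 to 16.7 ± 1.28 CPM (SD, n = 3 each), to 55.9% of the NC level (log2 fold change -0.84, standard error 0.10, edgeR adjusted p = 4.91e-04). ALDH2 (ENSG00000111275, chromosome 12 from 111766887 to 111817529, plus strand), the main enzyme of ethanol-derived acetaldehyde in liver, had 5.51, 6.10 and 5.72 CPM in NC and 10.2, 10.7 and 11.3 CPM in si-EIF5A2. It rose from 5.78 ± 0.299 to 10.7 ± 0.553 CPM (SD, n = 3 each), or 1.85-fold (log2 fold change 0.89, standard error 0.13, edgeR adjusted p = 0.00112). No library of one group reached the range of the other for either gene. Under the 14 alternative settings both stayed called, with -0.89 to -0.79 for ALDH1B1 and 0.85 to 0.93 for ALDH2. Per kb, ALDH1B1 was still the higher of the pair in si-EIF5A2, at 5.43 ± 0.417 against 1.12 ± 0.0579 CPM per kb (SD, n = 3 each). In NC the levels had been 9.72 ± 0.528 and 0.604 ± 0.0312 CPM per kb.

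Of the fatty and aromatic aldehyde enzymes, ALDH3A1, which is abundant in cornea, had 0 counts in all 6 libraries. ALDH3A2 (ENSG00000072210, chromosome 17 from 19648136 to 19677598, plus strand), the fatty aldehyde dehydrogenase of the endoplasmic reticulum, had 67.1, 44.4 and 53.9 CPM in NC and 55.4, 40.5 and 35.6 CPM in si-EIF5A2. Replicate 1 was the highest library in each group, and the groups overlapped. The log2 fold change was -0.33 (95% interval -0.82 to 0.16, edgeR adjusted p = 0.268). Leaving out si-EIF5A2 replicate 1 gave -0.54 and leaving out NC replicate 1 gave -0.17, and neither was called.

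The amino acid enzymes included the largest fall among the 10 genes. ALDH5A1 (ENSG00000112294, chromosome 6 from 24494852 to 24537207, plus strand), the succinate semialdehyde dehydrogenase that completes GABA breakdown, had 457, 384 and 236 counts in NC and 65, 95 and 67 in si-EIF5A2. As CPM these were 6.26, 5.42 and 5.02 in NC and 1.27, 1.82 and 1.4 in si-EIF5A2, with a wide gap between the groups. ALDH5A1 fell from 5.57 ± 0.634 to 1.5 ± 0.287 CPM (SD, n = 3 each), to 26.9% of the NC level. Its log2 fold change was -1.89 (standard error 0.22, edgeR adjusted p = 3.48e-04), and -2.06 to -1.80 under the alternative settings, all called. GPLD1, antisense to ALDH5A1 over 239 exon bases, had 19 to 52 counts and was not called.

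ALDH7A1 (ENSG00000164904, chromosome 5 from 126531200 to 126595418, minus strand), which oxidises an intermediate of lysine breakdown, had 42.4, 46.9 and 51.6 CPM in NC and 35.9, 33.3 and 32.2 CPM in si-EIF5A2. Each si-EIF5A2 library lay below each NC library, but the level of 72.0% of NC is within the fold limit (log2 fold change -0.47, standard error 0.10, edgeR adjusted p = 0.00764). Its processed pseudogene ALDH7A1P1 had at most 18 counts in a library. ALDH18A1 (ENSG00000059573, chromosome 10 from 95605929 to 95656706, minus strand), which makes the glutamate semialdehyde used for proline synthesis, had 120, 126 and 117 CPM in NC and 145, 158 and 141 CPM in si-EIF5A2. All si-EIF5A2 libraries were above all NC libraries, at 1.22-fold (log2 0.29, standard error 0.08, edgeR adjusted p = 0.0186), and the gene was not called. With no fold limit both genes pass, so 6 of 8 members passed an adjusted p under 0.05, where 36.9% of all genes tested did. With the threshold of the methods, an unadjusted p under 0.05 and a fold change over 2 or under 0.5, ALDH1A3 and ALDH5A1 pass, and 14.6% of all genes tested do.

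**Figure D2:**
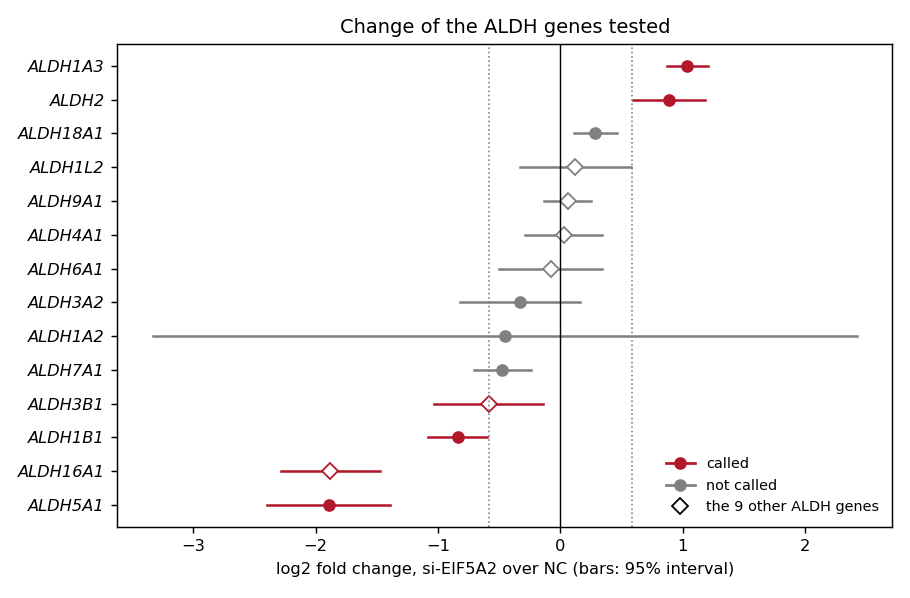
Log2 fold change of the 14 ALDH genes tested (8 of the 10 as circles, 6 of the other 9 as diamonds), si-EIF5A2 over NC, with 95% intervals as bars; dotted lines mark a fold change of 1.5 and red marks called genes. ALDH1A3 and ALDH2 lie to the right, ALDH5A1, ALDH16A1, ALDH1B1 and ALDH3B1 to the left, and ALDH1A2 has the widest interval.

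Levels of the 10 genes were compared as CPM per kb of each gene's principal transcript. In NC the order was ALDH18A1 (36.1 ± 1.4), ALDH1A3 (16.8 ± 0.513), ALDH3A2 (14 ± 2.91), ALDH1B1 (9.72 ± 0.528), ALDH7A1 (9.46 ± 0.920), ALDH5A1 (2.46 ± 0.280) and ALDH2 (0.604 ± 0.0312; SD, n = 3), followed by ALDH1A2, ALDH1A1 and ALDH3A1. The ranges of ALDH1A3 and ALDH3A2 overlapped, as did those of ALDH1B1 and ALDH7A1 and those of the 3 lowest genes. In si-EIF5A2 ALDH18A1 (44.0 ± 2.64) and ALDH1A3 (34.5 ± 1.55) stood well above ALDH3A2 (11.2 ± 2.63). ALDH7A1 (6.81 ± 0.388) was then above ALDH1B1, and ALDH2 (1.12 ± 0.0579) above ALDH5A1 (0.660 ± 0.127; SD, n = 3), with no overlap between these neighbours. Over the union of all exons in place of the principal transcript, ALDH1B1 (9.44) came before ALDH3A2 (8.54) in NC and ALDH7A1 dropped to 2.61 CPM per kb, since its annotated exons cover 17970 bases against 4964 in the principal transcript. On that scale ALDH1B1 (5.28) was also above ALDH7A1 (1.88) in si-EIF5A2, so the exchange of these genes depends on the length used.

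The summed level of the 10 genes was 91.1, 88.2 and 88.5 CPM per kb in the NC libraries and 107, 105 and 98.5 CPM per kb in the si-EIF5A2 libraries. ALDH1A3 supplied 18.0%, 18.9% and 19.7% of that sum in NC and 33.8%, 32.1% and 34.0% in si-EIF5A2. The ALDH1B1 share was 10.3% to 11.4% in NC and 4.61% to 5.83% in si-EIF5A2. Among the 10, ALDH18A1 kept the largest share in every library, at 39.2% to 42.7% in NC and 40.2% to 44.6% in si-EIF5A2. ALDH9A1, outside the 10, was higher, at 52.9 ± 3.72 CPM per kb in NC and 55.2 ± 3.22 in si-EIF5A2 (SD, n = 3 each). Over all 19 ALDH genes the sum was 156 to 158 CPM per kb in NC and 159 to 173 in si-EIF5A2. The shares above therefore hold for the 10 only. The ratio of ALDH1A3 to ALDH1B1 per kb, which does not depend on the library scaling, was 1.64, 1.66 and 1.91 in NC and 7.33, 6.04 and 5.84 in si-EIF5A2. These are RNA levels, and ALDH protein and enzyme activity were not measured in these files.

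**Figure D3:**
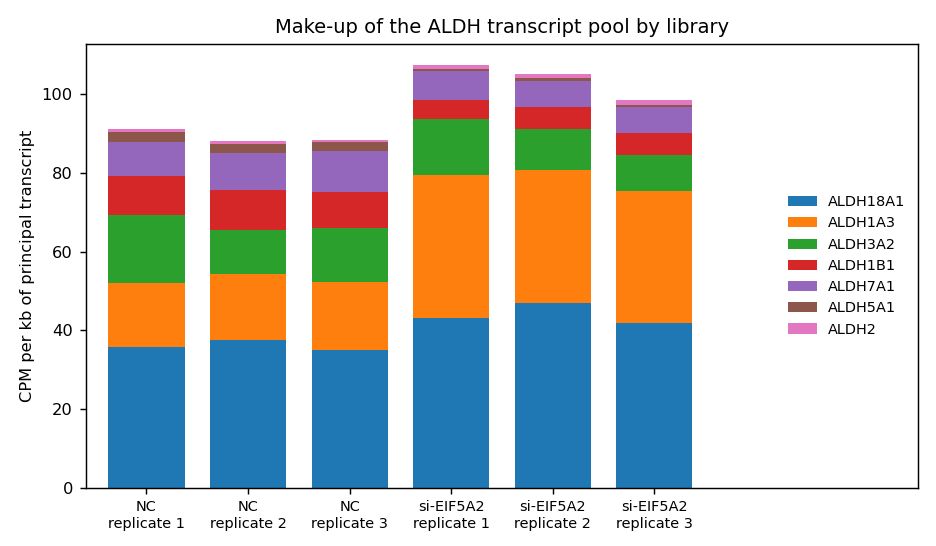
Stacked level of the ALDH genes in each library, as CPM per kb of the principal transcript; ALDH1A1, ALDH1A2 and ALDH3A1 are too low to be drawn. The ALDH1A3 segment is 18.0% to 19.7% of the sum in the NC libraries and 32.1% to 34.0% in the si-EIF5A2 libraries.

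Of the other 9 ALDH genes, 6 were tested and 2 were called, both lower (33.3%, where 24.6% of all genes tested were called and 13.6% were called lower). ALDH16A1, an unusual family member with doubtful catalytic activity, had 21.8, 19.6 and 22.5 CPM in NC and 4.50, 5.84 and 7.0 CPM in si-EIF5A2. It fell to 27.2% of the NC level (log2 fold change -1.88, standard error 0.18, edgeR adjusted p = 1.30e-04), a size close to that of ALDH5A1. PIH1D1, antisense to ALDH16A1 over 152 exon bases, fell too, with a log2 fold change of -0.62 (edgeR adjusted p = 0.00228); whether reads were counted by strand is not given, so reads of the shared bases cannot be told apart. ALDH3B1 had 12, 10.2 and 11.1 CPM in NC and 6.02, 9.52 and 6.65 CPM in si-EIF5A2, with replicate 2 of the latter close to NC. It fell to 66.6% of the NC level (log2 fold change -0.59, edgeR adjusted p = 0.0452), at the edge of both limits. ALDH3B1 was called in 5 of 14 alternative settings, with log2 fold changes of -0.81 to -0.46 and adjusted p of 0.00794 to 0.126. The call was lost when any library other than si-EIF5A2 replicate 2 was left out, with values of -0.64 to -0.46.

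The remaining family members did not pass the test. ALDH9A1, which handles betaine and GABA precursors, had 132, 151 and 145 CPM in NC and 151, 156 and 139 CPM in si-EIF5A2, with a log2 fold change of 0.06 (95% interval -0.13 to 0.25, edgeR adjusted p = 0.614). ALDH4A1, the proline catabolic enzyme that acts on the same semialdehyde as ALDH18A1, had a log2 fold change of 0.03 (edgeR adjusted p = 0.905). ALDH1L2, of mitochondrial folate metabolism, had 0.12 (edgeR adjusted p = 0.671), and ALDH6A1, of valine breakdown, had -0.08 (edgeR adjusted p = 0.777). C12orf45, antisense to ALDH1L2 over 145 exon bases, had 718 to 1599 counts per library and was not called. ALDH1L2 itself had 220 to 527 counts, so its value is less certain. BBOF1, antisense to ALDH6A1 over 670 exon bases, had a log2 fold change of 2.27 (edgeR adjusted p = 3.84e-04), so the ALDH6A1 value is less certain. ALDH1L1, ALDH3B2 and ALDH8A1 had at most 26 counts in a library and were not tested.

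The genes around ALDH1A3 in retinoid metabolism were followed in a list of 21 transport, reduction, oxidation and receptor genes. Of these, 14 were tested and 4 were called (28.6%, near the 24.6% of all genes tested), 1 higher and 3 lower, and 5 were at 0 in all libraries. RDH10, which oxidises retinol to the retinaldehyde that ALDH1A enzymes use, rose from 7.85 ± 0.457 to 14 ± 0.815 CPM (SD, n = 3 each; log2 fold change 0.84, edgeR adjusted p = 0.00112). RDH11 and DHRS3, which reduce retinaldehyde back to retinol, both fell. RDH13, RDH14 and DHRS4 on the same list were not called, with log2 fold changes of -0.10, 0.36 and 0.07. Each si-EIF5A2 library was above each NC library for RDH14. RDH11 had 73.4, 95.3 and 98.6 CPM in NC and 41.3, 38.0 and 30.2 CPM in si-EIF5A2 (log2 fold change -1.29, edgeR adjusted p = 4.84e-04). DHRS3 had 4.06, 4.22 and 3.28 CPM in NC and 1.37, 1.15 and 1.75 CPM in si-EIF5A2 (log2 fold change -1.44, edgeR adjusted p = 0.00250). STRA6, the retinol uptake receptor, had 28, 31 and 24 counts in NC and 0 in all si-EIF5A2 libraries, at least 2.0-fold lower when each si-EIF5A2 library is set at 3 fragments. It passed the filter only through its NC counts, yet it is among the 4 called. With at least 10 counts in every library 3 retinoid genes were called, where 27.8% of all genes tested were. With counts divided by their step 3 were called, where 29% of all genes tested were. The receptors RARA, RARB, RARG, RXRA and RXRB and the retinoic acid hydroxylase CYP26B1 were tested and not called. The median log2 fold change of the 14 tested was -0.17.

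Beside ALDH18A1, a list of 9 enzymes of proline and glutamate was followed, of which 8 were tested and 1 was called (12.5%, against 24.6% of all genes tested). GLUD1, the glutamate dehydrogenase, fell from 283 ± 18.5 to 139 ± 7.46 CPM (SD, n = 3 each; log2 fold change -1.02, edgeR adjusted p = 5.3e-05). The reductase PYCR1, which acts after ALDH18A1 in proline synthesis, had a log2 fold change of 0.14 (edgeR adjusted p = 0.536) and was not called. Of 24 other enzymes that make or remove aldehydes, 17 were tested and 4 were called (23.5%, near the 24.6% of all genes tested), 1 higher and 3 lower. AKR1C1 fell from 49.3 ± 1.68 to 12.2 ± 0.969 CPM and AKR1C3 from 56.7 ± 2.22 to 7.61 ± 0.542 CPM (SD, n = 3 each), with log2 fold changes of -2.01 and -2.90 (edgeR adjusted p = 7.6e-06 and 4.4e-06). These aldo-keto reductases have closely related paralogs, so their single values are uncertain. The carbonyl reductase CBR3 fell (log2 fold change -0.88, edgeR adjusted p = 0.00713). The aldehyde oxidase AOX1, which like most ALDH enzymes turns aldehydes into acids, rose from 37.2 ± 5.23 to 79.7 ± 11.7 CPM (SD, n = 3 each). Its log2 fold change was 1.10 (edgeR adjusted p = 6.49e-04).

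**Figure D4:**
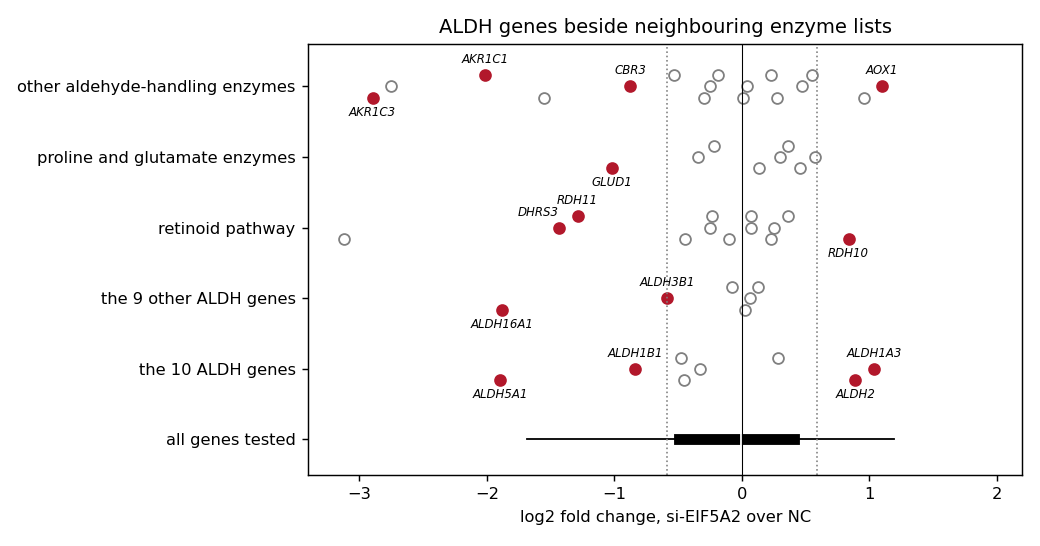
Log2 fold change, si-EIF5A2 over NC, of each tested gene in the 5 enzyme lists, with called genes in red and named, dotted lines at a fold change of 1.5, and all 16208 genes tested as a bar (thin line, 5th to 95th percentile; thick line, 25th to 75th). STRA6 is left out because its si-EIF5A2 libraries are all at 0; each list has points on both sides of 0.

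Of the surface and pluripotency markers that the study used beside ALDH, CD44 and CD24 were tested and not called. PROM1 and POU5F1 did not pass the filter on low counts and were not tested. The study measured these markers as protein, in part in spheroids, whereas the values here are RNA. The CD44 level was 673 ± 155 CPM (NC) and 864 ± 37.0 CPM (si-EIF5A2) (SD, n = 3 each; log2 fold change 0.36, edgeR adjusted p = 0.122). CD24 had 4.01 ± 0.840 and 3.99 ± 0.978 CPM (SD, n = 3 each; edgeR adjusted p = 0.993). PROM1, which encodes CD133, had 4 counts in each of 2 NC libraries and 0 elsewhere, and POU5F1, which encodes OCT-4, had 0 counts in all libraries.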

How the data were processed

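RNA of 6 SKOV3 libraries (NC and si-EIF5A2, n = 3 each) was sequenced as paired-end mRNA libraries. The authors used StringTie and ballgown, and the deposited estimated counts are whole numbers per gene, not normalized, so rounding changed nothing. The aligner, genome build and annotation are not given in the sources used here: the submitters' processing notes name Bowtie 0.12.2 and mouse builds, which cannot describe this human table. The test had been planned for counts. StringTie shares fragments between overlapping transcripts and a fragment is worth about 3.72 counts, so low values rest on fewer fragments than they appear to.

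Groups came from the sample labels, and all 6 columns were matched by name. Counts were analysed with edgeR 4.0.16 (R 4.3.3) with group as the only term: filterByExpr, TMM, robust fits by quasi-likelihood, and p-values adjusted by Benjamini-Hochberg over the 16208 genes tested. Symbols, positions and lengths came from GENCODE release 29 (GRCh38), in which 58552 of the 58825 identifiers were found. Promoter windows came from RefSeq. The steps were tested on simulated counts.

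The rule for the members uses symbols only, but the members and gene lists were chosen with earlier results of these data known. Genes named are EIF5A2, all 19 ALDH genes, the stem cell markers, the called genes of the other lists (at most 6 per list by size of change), and the 5 genes of at least 10 CPM whose log2 CPM (prior count 2) follows most closely that of ALDH1A1 or, where it fails the filter as here, of the member highest per kb. The receptors, CYP26B1, RDH13, RDH14, DHRS4, PYCR1, the overlapping genes, ALDH7A1P1 and the cell type markers outside this rule were named after their values were seen. Not every gene under the rule is reported here by name. Alternatives were DESeq2 1.42.0, RLE, upper-quartile and library-size scaling, no filter, a minimum of 10 counts per library, the replicate block, counts divided by their step, each library left out, and 2 other thresholds.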

Additional observations from a re-analysis of the deposited data

How the results depend on the processing

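The 4 calls among the ALDH members (ALDH1A3, ALDH2, ALDH1B1, ALDH5A1) were made under every alternative test, scaling, filter and left-out library. The members called numbered 4 with each library left out, where 21.8% to 23.3% of all genes tested were called. At the methods' own threshold 2 members were called, where 14.6% of all genes tested were. Of 194 fold changes recomputed, 178 kept direction and side of the threshold, 9 lost the call (all ALDH3B1) and 7 changed sign, none of them called. Of the other ALDH genes, 1 was called in place of 2 under DESeq2, RLE, library size only and the replicate block. The share of all genes called was 26.6% (DESeq2), 24.6% (RLE and library size only) and 23% (replicate block). At the threshold of the methods 1 was called too, where 14.6% of all genes tested were. With libraries left out 1 to 2 were called, where 21.8% to 23.3% of all genes tested were. These counts differ because ALDH3B1 lies at the limits. All genes called numbered 3992, 2370 at the threshold of the methods and 3638 to 3907 with libraries left out. With no fold limit, 4 of 8 proline and glutamate enzymes and 8 of 17 other aldehyde-handling enzymes passed, where 36.9% of all genes tested did. Under the 1.5-fold limit with libraries left out, these lists had 1 to 2 and 4 to 5 calls, and retinoid genes 4 to 5. The share of all genes called was then 21.8% to 23.3%, as given above. Sign changes were ALDH1A2 (0.28 with the replicate block, -1.06 to 0.65 with libraries left out), ALDH4A1 (-0.0054 with no filter, -0.053 to 0.083 with libraries left out), and, with libraries left out, ALDH1L2 (-0.062 to 0.22) and ALDH6A1 (-0.19 to 0.010); the cause was not tested. ALDH1A2 gave no value under 2 stricter settings, where it failed the filter.

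Deviations of same-numbered NC and si-EIF5A2 libraries correlated at -0.024, 0.005 and -0.003. No library correlated best with its own number, so the numbers were not taken to pair the samples. With the replicate block 3731 genes (23% of those tested) were called, among them 4 members. Depth limits ALDH1A1, ALDH1A2 and ALDH3A1, each with at most a few fragments per library.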

Other observations

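Over the 6 libraries, the genes of at least 10 CPM whose log2 CPM lay closest to that of ALDH18A1, the highest per kb of the 10 ALDH genes chosen, included PPIP5K2 (Pearson r = 0.9994), ATXN7L3 (0.9984), TANGO2 (0.9964) and ZC3H7B (0.9953). The points share their libraries and scaling, and 219 of 8839 candidate genes had r over 0.95, so the likeness is a description. ATXN7L3, a subunit of a histone deubiquitinase, had 120, 126 and 119 CPM in NC and 143, 156 and 140 CPM in si-EIF5A2.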
